A study of Ovis aries with 16 samples.

Results

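The miR-376 family of sheep was represented in these testis data by 5 miRNAs, oar-miR-376a-5p, oar-miR-376b-3p, oar-miR-376c-3p, oar-miR-376d and oar-miR-376e-3p. They were chosen by name, as every entry whose identifier starts with oar-miR-376, out of 271 miRNAs and 5267 small RNAs in all. The suffix gives the arm of the hairpin precursor from which the mature miRNA is cut, and oar-miR-376d carries none. Small RNAs were sequenced from testis of 16 sexually mature Merino males, 1 library per male and 8 males per diet. Well-fed males were fed for a change in body mass of 10% over 65 days and underfed males for a change of -10%. The labels name no treatment other than diet, and RNA came from whole tissue of the right testis, so that a change in the number of cells of a type and a change in expression per cell cannot be told apart. Values are CPM, the reads of a miRNA scaled to 1000000 miRNA reads of its own library. Males are named by diet and by the replicate number in the labels.

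Members of the miR-376 family lie side by side in the imprinted DLK1-DIO3 region, which in sheep also holds the callipyge mutation, known for muscle overgrowth. The non-coding RNAs of this region, with its large miRNA clusters, are transcribed from the maternal chromosome. The miR-376 hairpins arose by local duplication and their mature miRNAs are close in sequence, and in mouse and human tissues some of them are known to be edited from A to I in the seed, the stretch of a miRNA that pairs with its targets. Mature sequences were not printed because none of the sources used here held them. In the RefSeq annotation of a later sheep assembly, ARS-UI_Ramb_v3.0, all 5 precursor genes were found on chromosome 18. Their order there was MIR376E, MIR376C, MIR376D, MIR376B and MIR376A, with MIR654 between MIR376D and MIR376B, MIR3958 before the group and MIR1185 after it. The study's own cluster table, on the older assembly of the files, places the precursor of oar-miR-376b first and that of oar-miR-376e just before that of oar-miR-376a. This conflict was not resolved, and it bears on which hairpins the names oar-miR-376b-3p and oar-miR-376e-3p stand for. No coordinates are given because no annotation of the files' assembly was used here.

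The depth of the libraries limits what can be read from these miRNAs. The 16 libraries held between 17163 and 1058985 miRNA reads, as recovered from the steps of the CPM values. Well-fed replicate 5 and underfed replicates 6 and 8 held fewer than 100000. A count of 0 allows up to 3 reads, which is between 2.83 CPM in the deepest library and 174.8 CPM in the shallowest. All 80 values of the 5 miRNAs were whole numbers of reads within 0.1 read, from 0 to 31, so none showed a read split between precursors. The 3 germ cell miRNAs (homologues of miR-34b, miR-34c and miR-449a by the study's pairing) were all listed and summed to between 47497 and 71079 CPM in well-fed and between 10978 and 58155 CPM in underfed males. None of these 3 was at 0 in every library. The smooth muscle pair summed to between 153985 and 210989 CPM in well-fed and between 138660 and 215633 CPM in underfed males. The summed ranges of well-fed and underfed males were 3293 to 9150 and 2595 to 9186 CPM for 3 blood miRNAs, 25.8 to 174.8 and 23.3 to 179.9 CPM for the 4 of 5 epithelial miRNAs listed, and 0 to 51.6 and 0 to 58.2 CPM for the 2 of 3 striated muscle miRNAs listed. The part of tissue composition in the values that follow was not tested.

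All 5 miRNAs were scarce. Over the 16 males they held 467 reads together, 240 in well-fed and 227 in underfed males. The summed expression of the family lay between 58.3 and 154.8 CPM in well-fed males (median 97.8). It lay between 26.8 and 119.8 CPM in underfed males (median 40.3). These sums are CPM with no scaling beyond the total of each library. The ranges overlapped, and the highest underfed value was 6 reads of replicate 8, a library with few reads. Each diet had 40 values, and 5 of the well-fed and 12 of the underfed values were 0. By mean CPM, oar-miR-376a-5p ranked 169 among the 271 miRNAs, oar-miR-376c-3p 186, oar-miR-376b-3p 232, oar-miR-376e-3p 237 and oar-miR-376d 261.

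The most abundant member by mean CPM was oar-miR-376a-5p, the only 5p miRNA of the family listed, at 31.1 ± 21.6 CPM (SD, n = 16) with 152 reads. It was followed by oar-miR-376c-3p at 24.2 ± 15.4 CPM with 177 reads, the most of any member. These levels can be set side by side because each read is 1 mature miRNA of similar length, but ligation and amplification may favour some sequences. The within-library log2 ratio of oar-miR-376a-5p to oar-miR-376c-3p averaged 0.39 ± 3.08 (SD, n = 16), with adjusted p = 0.812 (exact sign-flip permutation test, two-sided, 4 neighbouring pairs). The first was higher in 7 males, the second in 8, and 1 male had equal values, so the order of these neighbours was not shown.

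The step from oar-miR-376c-3p to the next member, oar-miR-376b-3p, was larger. The latter had 8.78 ± 14.3 CPM (SD, n = 16) with 38 reads, and oar-miR-376c-3p was higher in 13 males and lower in 1. The mean log2 ratio was 1.501 ± 2.33 (SD, n = 16) with adjusted p = 0.0547 (exact sign-flip permutation test, two-sided). In the 13 libraries above 100000 miRNA reads it was 1.90 with adjusted p = 0.00195 by the same exact test. Expression of oar-miR-376e-3p was 8.23 ± 8.35 CPM with 71 reads, more reads than oar-miR-376b-3p at a slightly lower mean CPM. In the 13 deeper libraries oar-miR-376e-3p averaged 10.1 CPM and oar-miR-376b-3p 6.20 CPM, and the mean log2 ratio of the latter to the former over all males was -0.06 ± 1.82 (SD, n = 16; adjusted p = 0.934, exact sign-flip permutation test). The lowest member was oar-miR-376d, with 4.27 ± 4.73 CPM and 29 reads. The log2 ratio of oar-miR-376e-3p to it was 0.73 ± 1.14 (SD, n = 16; adjusted p = 0.0547, exact sign-flip permutation test), with 7 ties, most of them at 0.

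**Figure D1:**
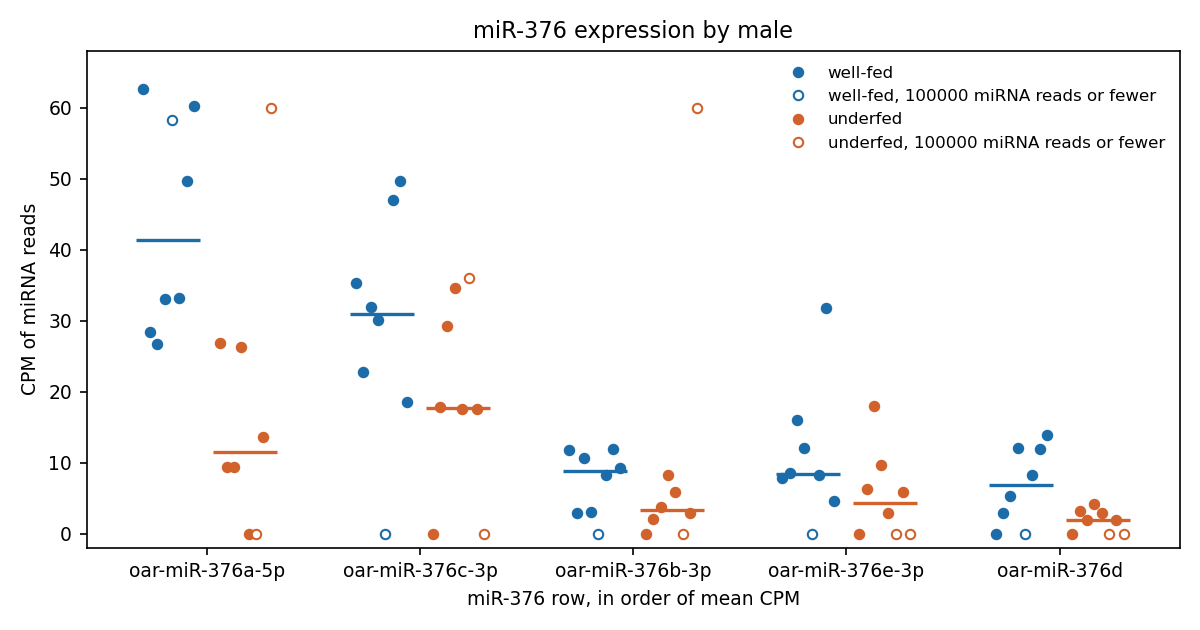
Expression of the 5 miR-376 miRNAs in each male, in CPM of miRNA reads on the vertical axis, with 1 point per male, blue for well-fed and orange for underfed, and a line at the median of 8 males. Open points are the 3 libraries with fewer than 100000 miRNA reads, and the points at 59.9 CPM for underfed males are 3 reads each of replicate 8.

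The arm that was listed differed among the precursors. For oar-miR-376a the 5p miRNA was listed, and for oar-miR-376b, oar-miR-376c and oar-miR-376e the 3p miRNA. No precursor of the family had both arms listed, so the 5p to 3p ratio of a single hairpin could not be formed, and the arm that is not listed was not analysed here. The study's own table of clusters names the 3p miRNA of oar-miR-376a where the files name the 5p miRNA, and the name in the files is used throughout. Elsewhere in the data, 12 miRNAs had both arms listed. The 5p arm had the higher mean CPM in 9 of them and the 3p arm in 3 (oar-miR-1197, oar-miR-369 and oar-miR-409). For example, oar-miR-411a had 1470 CPM from the 5p arm and 18.4 CPM from the 3p arm, while oar-miR-409 had 13.4 and 409.5 CPM.

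The 5p miRNA of the family could be set only against 3p miRNAs of neighbouring hairpins. Of all reads of the family, oar-miR-376a-5p took 93 of 240 in well-fed males, a share of 38.8% (95% exact Clopper-Pearson interval 32.6% to 45.2%). It took 59 of 227 in underfed males, a share of 26% (interval 20.4% to 32.2%). These intervals cover counting error only and not the spread between males. In the 7 well-fed libraries above 100000 miRNA reads the share lay between 29.4% and 56.5%, with a median of 36.7%. In the 6 such underfed libraries it ran from 0 in replicate 5 to 100% in replicate 1, where all 4 reads of the family were oar-miR-376a-5p, with a median of 28.0%. The diets overlapped in this share.

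Against oar-miR-376b-3p, the log2 ratio of oar-miR-376a-5p had a well-fed mean of 2.74 ± 1.41 and an underfed mean of 1.05 ± 2.15 (SD, 8 males each). The difference of -1.69 had adjusted p = 0.254 (exact permutation test, two-sided, 3 ratios). The 5p miRNA was the higher in 8 well-fed and in 5 underfed males. Without underfed replicate 1 the difference was -2.23 with adjusted p = 0.0107, and with a pseudocount of 5 CPM it was -1.33 with adjusted p = 0.0410, both by the exact permutation test. In the 13 deeper libraries it was -0.89 with adjusted p = 0.548 (exact permutation test), so a difference in this ratio was not shown. Against oar-miR-376c-3p the well-fed mean was 1.01 ± 2.08 and the underfed mean -0.23 ± 3.89 (SD, n = 8 each; adjusted p = 0.426, exact permutation test). Here the 5p miRNA was higher in 5 well-fed and 2 underfed males. Against oar-miR-376e-3p the means were 2.30 ± 1.74 and 1.36 ± 2.71 (SD, n = 8 each; adjusted p = 0.426, exact permutation test). Leaving out 1 male at a time, the difference between diets ran from -2.11 to -0.52 for the ratio to oar-miR-376c-3p and from -1.60 to -0.43 for that to oar-miR-376e-3p.

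**Figure D2:**
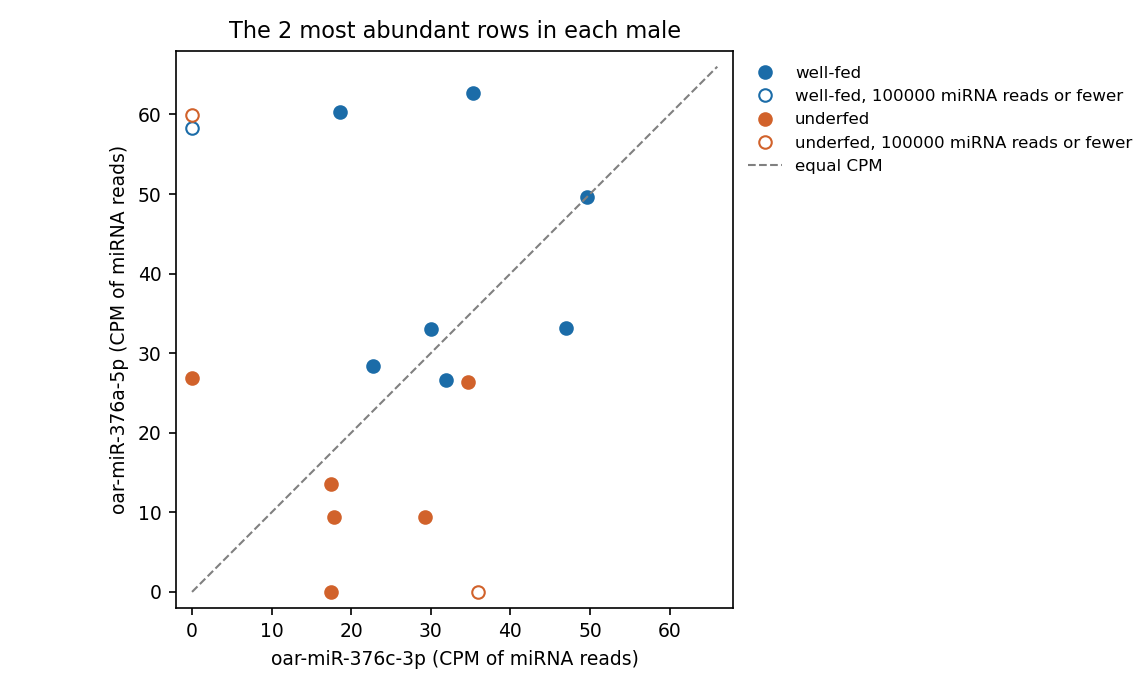
CPM of oar-miR-376a-5p (vertical) against CPM of oar-miR-376c-3p (horizontal) in the 16 males, with a dashed line where both are equal and open points for libraries with 100000 miRNA reads or fewer. The 8 well-fed males lie at 26.6 CPM or more on the vertical axis, and 6 of the 8 underfed males are plotted below all of them, 1 of these an open point at 0.

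The question put by the diets was whether expression differed between underfed and well-fed males. Of the 5 miRNAs, 4 passed the filter of CPM above 5 in at least 8 libraries and were tested with the other miRNAs. None of the 4 was differentially expressed (DE, which required a false discovery rate (FDR) under 0.05 and a ratio of mean CPM under 0.67 or above 1.5), and 1 had an unadjusted p under 0.05 by limma. Among all 244 miRNAs tested, 3.28% were DE (2.46% lower in underfed males), 6.15% had FDR under 0.05 and 25.8% had an unadjusted p under 0.05 (11.5% with lower expression). The count of DE members was also 0 with voom on recovered reads, and 1 member had an unadjusted p under 0.05. Of all 244 miRNAs, 26 were DE with voom and 38.9% had an unadjusted p under 0.05. On the log2(CPM + 1) scale, the 4 log2 fold changes were negative with a median of -0.63, against -0.08 for all 244 miRNAs, of which 52.9% were negative. The median of the 4 depended on the scale. It was -0.81 with a pseudocount of 0.5 CPM, -0.29 with 5 CPM and -0.24 with voom. When miRNAs and piRNAs were normalized jointly, only oar-miR-376a-5p of the 4 stayed lower in underfed males, and the median of all tested miRNAs moved to 0.81.

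Expression of oar-miR-376a-5p lay between 26.6 and 62.7 CPM in well-fed males (median 41.4). It lay between 0 and 59.9 CPM in underfed males (median 11.5). By listed value 6 of the 8 underfed males were below every well-fed male, replicate 6 among them with 0 reads in a shallow library, and the exceptions were replicate 1 at 26.8 CPM (4 reads) and replicate 8 at 59.9 CPM (3 reads). The well-fed mean was 44.0 ± 15.3 and the underfed mean 18.2 ± 19.7 CPM (SD, n = 8 each), a ratio of 0.413. By limma, the log2 fold change was -1.76 ± 0.76 (standard error), with an unadjusted p = 0.0309 and an FDR of 0.151. It was therefore the member with the largest diet difference among the 4 tested, and that difference did not pass the FDR threshold.

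Underfed replicate 5 had 0 reads of oar-miR-376a-5p among 343066 miRNA reads, which allows up to 8.74 CPM. This is below the lowest listed well-fed value, 26.6 CPM in replicate 3. That well-fed value was only 5 reads (95% exact Clopper-Pearson interval 8.65 to 62.2 CPM, counting error only). Underfed replicate 6 also had 0, but with 27797 miRNA reads up to 108 CPM is allowed there, and low expression could not be detected at this depth. The well-fed replicate 5 value of 58.3 CPM was a single read. Pooled over males and without TMM scaling, the read shares gave a ratio of underfed to well-fed of 0.326 (95% interval 0.231 to 0.457, counting error only). Leaving out each male in turn gave log2 fold changes from -2.12 to -1.28 and FDR from 0.0701 to 0.260 (limma). The log2 fold change was -2.15 without TMM scaling (FDR 0.0566), where the median of all 244 miRNAs was -0.51. It was -0.62 with joint normalization (FDR 0.529), where that median was 0.81.

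For oar-miR-376c-3p, well-fed males ranged from 0 to 49.6 CPM with a median of 31.0, and underfed males from 0 to 36.0 CPM with a median of 17.7. Only well-fed replicate 5 was at 0 among the well-fed, and underfed replicates 1 and 8 among the underfed. The underfed maximum, in replicate 6, was 1 read, and the next values were 34.6 CPM with 25 reads in replicate 4 and 29.3 CPM with 31 reads in replicate 3. By listed value, 2 well-fed males were above every underfed male, but underfed replicates 6 and 8 were too shallow to be placed below them. The means were 29.4 ± 16 and 19.1 ± 14.0 CPM (SD, n = 8 each), and limma gave a log2 fold change of -0.45 ± 0.94 (standard error) with FDR 0.760. This value was 0.086 without underfed replicate 1, 0.086 without underfed replicate 8 and -0.73 in the 13 deeper libraries, so no direction was established. With joint normalization it was 0.51, where the median of all 244 miRNAs was 0.81.

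The remaining 3p miRNAs rested on few reads. In well-fed males oar-miR-376e-3p ranged from 0 to 31.8 CPM with a median of 8.40, and the highest value was 16 reads of replicate 7. In underfed males it ranged from 0 to 17.9 CPM with a median of 4.38, and the highest value was 19 reads of replicate 3. Limma gave a log2 fold change of -0.82 ± 0.82 (standard error) with FDR 0.543, and this value was 0.14 with joint normalization. In well-fed males oar-miR-376b-3p ranged from 0 to 11.9 CPM with a median of 8.78, and no male had more than 6 reads. By listed value 7 of the 8 underfed males were below this median, but replicates 1 and 6 were at 0 reads in libraries too shallow to place them there. Underfed replicate 8 was at 59.9 CPM with 3 reads. Because of that male the ratio of mean CPM was 1.44, while limma gave a log2 fold change of -0.09 ± 0.80 (standard error) with FDR 0.954. This sign turned with joint normalization (0.70, where the median of all 244 miRNAs was 0.81) and with a pseudocount of 5 CPM (0.081). In the 13 deeper libraries the ratio of means was 0.464 and the log2 fold change -0.63 (FDR 0.438, limma).

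The member that did not pass the filter, oar-miR-376d, exceeded 5 CPM in 5 well-fed and 0 underfed males. These 5 values were 1 to 6 reads each, and depth bears on the count. In well-fed replicate 3, 1 read was 5.33 CPM, while 3 reads in the deeper underfed replicate 4 were 4.16 CPM. In well-fed males oar-miR-376d ranged from 0 to 13.9 CPM with a median of 6.81, on 18 reads in all. In underfed males it ranged from 0 to 4.16 CPM with a median of 1.92, on 11 reads among 4331514 miRNA reads against 2227184. By listed value, all 8 underfed males were below the well-fed median and 5 well-fed males were above every underfed male. Underfed replicates 1, 6 and 8 were among them with 0 reads, which allows 20.1, 108 and 59.9 CPM, so these 3 males cannot be placed below the well-fed values at their depth. The pooled ratio of read shares, also without TMM scaling, was 0.314 (95% interval 0.134 to 0.703, counting error only). Fitted without the filter, limma gave -0.89 ± 0.71 (standard error) with FDR 0.465, which did not pass the threshold.

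**Figure D3:**
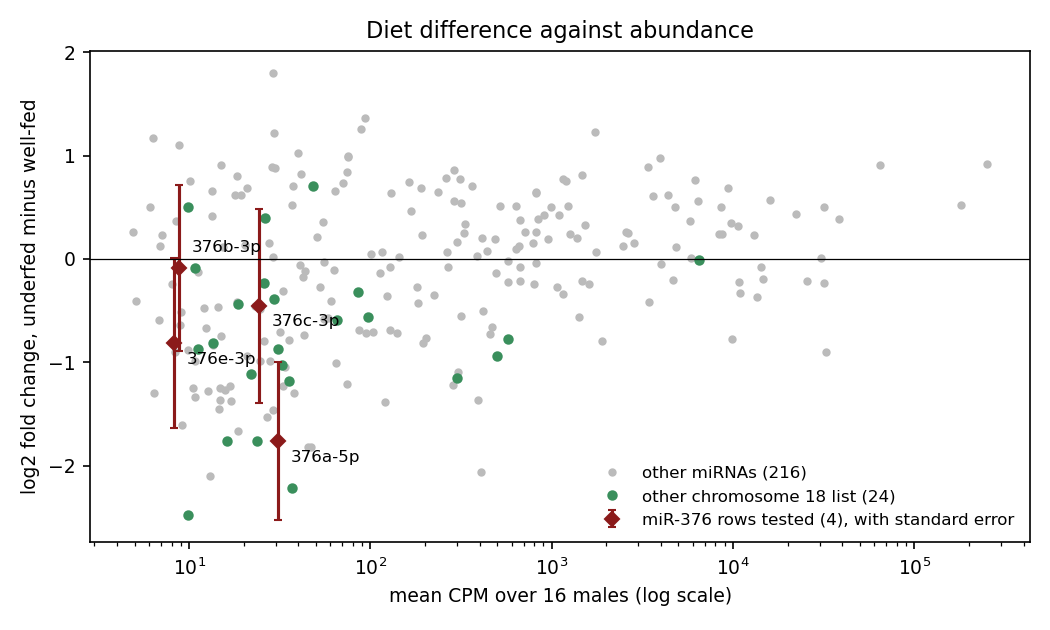
Log2 fold change (underfed minus well-fed, on the log2(CPM + 1) scale) against mean CPM on a log axis for the 244 miRNAs tested, with the 4 tested miR-376 miRNAs as diamonds with standard errors and the 24 tested miRNAs of the remaining chromosome 18 list in green. The diamonds lie at the scarce end of the axis, between -1.76 and -0.09.

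The family was then set against its neighbours. The study's chromosome 18 clusters hold 34 other miRNAs in the list used here, of which 29 were listed and 24 passed the filter. This list leaves out many miRNAs of the region, such as oar-miR-379-5p and oar-miR-411a-5p, the latter at a mean of 1470 CPM. The modelled change was negative in 21 of the 24 that passed, with 7 below an unadjusted p of 0.05 (limma), all 7 lower in underfed males, and 3 DE. Their median log2 fold change was -0.80. The lowest fold change belonged to oar-miR-411b-3p (-2.48) and the highest to oar-miR-136 (0.71). Of the 216 tested miRNAs in neither the list nor the family, 104 had a negative change and 5 were DE. Of these 216, 55 were below an unadjusted p of 0.05 (limma), 20 of them lower in underfed males. The split by abundance is given for the reported fit only, without a test. Of 118 tested miRNAs with mean CPM under 100, 79 had negative log2 fold changes, with a median of -0.46, against 0.14 for the 126 more abundant ones. The 94 scarce miRNAs that belong neither to the family nor to the list had a median of -0.41. These 94 include miRNAs of the region that the list leaves out, such as oar-miR-379-5p. All 4 tested miR-376 miRNAs were under 100 CPM.

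The family took a small part of the summed expression of this list and the family. Of the summed CPM of the list and the family, the family took between 0.559% and 2.11% in well-fed males, with a median of 0.915%, and between 0.172% and 2.32% in underfed males, with a median of 0.625%. Each member was also divided by the summed list in the same library, with 1 CPM added to both. For oar-miR-376a-5p the well-fed mean of the log2 ratio was -7.86 ± 0.57 and the underfed mean -9.37 ± 2.03 (SD, 8 males each). The difference of -1.51 had an unadjusted p = 0.0563 and an adjusted p = 0.281 (exact permutation test, two-sided, 5 ratios). With 5 CPM added the difference was -0.85, with adjusted p = 0.441 by the same exact test. For the other members the differences were 0.18 for oar-miR-376b-3p, -0.28 for oar-miR-376c-3p, -0.57 for oar-miR-376d and -0.57 for oar-miR-376e-3p, each with adjusted p = 0.901 by the same exact test. A diet difference beyond that of the summed list was therefore not shown for any member. The sum weighs each miRNA by its abundance, so it does not stand for the typical change of the list (median log2 fold change -0.80). A difference from that typical change was not tested.

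Profiles across males were compared in the 13 deeper libraries as a description, in which scaling and sampling noise are shared. The miRNAs named outside the family had the 3 highest rho with each member among all other miRNAs that passed the filter. Picking the highest of so many over 13 libraries gives high values by itself, and co-expression was not tested. Within the family, Spearman's rho was highest between oar-miR-376c-3p and oar-miR-376e-3p, at 0.72, and lowest between oar-miR-376a-5p and oar-miR-376e-3p, at -0.01. The miRNA most like oar-miR-376a-5p outside the family was candidate-miR-142 (rho 0.79), followed by candidate-miR-100 (0.77) and candidate-miR-128 (0.76), where candidate-miR stands for the predicted miRNAs with the authors' numbers. The 3 most like oar-miR-376c-3p were oar-miR-154a-3p (0.79), oar-miR-30b (0.78) and candidate-miR-51 (0.77). For oar-miR-376d they were oar-miR-381-3p (0.83), candidate-miR-176 (0.76) and candidate-miR-166 (0.71). For oar-miR-376b-3p they were candidate-miR-120 (0.81), candidate-miR-58 (0.66) and candidate-miR-156 (0.64). For oar-miR-376e-3p they were candidate-miR-56 (0.74), candidate-miR-108 (0.70) and oar-miR-379-5p (0.69), the last of which lies in the region but not in the list. Of these 15 miRNAs, 1 was in the chromosome 18 list (oar-miR-381-3p), which held 24 of the 244 miRNAs tested. That list leaves out part of the region, and neither oar-miR-154a-3p nor oar-miR-379-5p is in it. This is therefore not a count of neighbours in the region.

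**Figure D4:**
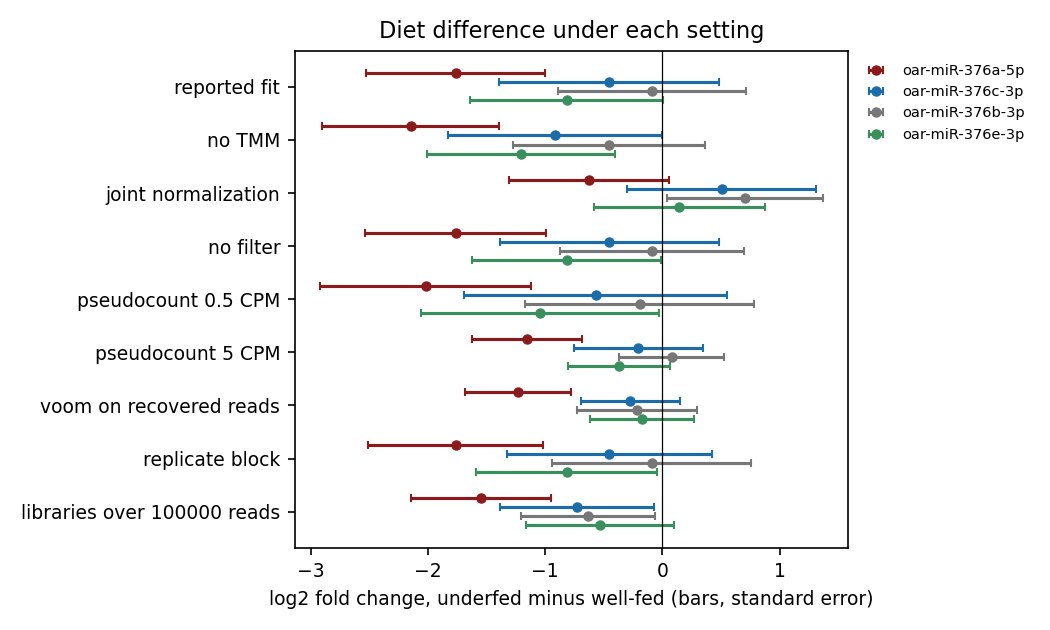
Log2 fold change (underfed minus well-fed) with standard error for the 4 tested miR-376 miRNAs under the reported fit and 8 alternative settings, 1 setting per line. Values of oar-miR-376a-5p stay below 0, between -2.15 and -0.62, while the 3p miRNAs are above 0 with joint normalization and oar-miR-376b-3p also with a pseudocount of 5 CPM. With joint normalization the median of all 244 miRNAs was 0.81.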

How the data were processed

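Testis small RNAs of 8 well-fed and 8 underfed males were measured, 1 library each, with diets and replicate numbers taken from the labels. The authors demultiplexed reads with CASAVA 1.8 (submitters' processing notes), trimmed adaptors, removed Rfam matches and counted miRNAs of 18 to 25 nt on miRBase 20 and on precursors predicted on OAR3.1. How reads matching several miR-376 precursors were assigned is not given in the sources used here. The deposited signal is CPM, with miRNAs and piRNAs each divided by their own total and stacked in 1 column. Between 93.7% and 99.0% of low miRNA values were whole multiples of 1 read within 0.1 read, and reads were recovered from this step.

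With limma 3.58.1 in R 4.3.3, log2(CPM + 1) after TMM scaling (own implementation) was fitted with the empirical Bayes trend to all miRNAs with CPM above 5 in at least 8 libraries. A miRNA was called DE when its FDR (Benjamini-Hochberg) was below 0.05 and the ratio of mean CPM, in the same direction as the modelled change, was below 0.67 or over 1.5. The fit with this rule was also run on simulated data with large changes and 1 fixed spread for all miRNAs. That run does not show how often a change in miRNAs as scarce as these would be found. Ratios within a library used a pseudocount of 1 CPM and exact permutation over 12870 arrangements of the diets, or exact sign flips over 65536 arrangements of 16 males (Python 3.11.15, scipy 1.17.1), with Benjamini-Hochberg adjustment within each set of ratios. Ratios across precursors and to the chromosome 18 list were added after seeing the data, since no precursor had both arms listed. Alternatives were no TMM, joint normalization, no filter, other pseudocounts, voom, the replicate block, the 13 libraries above 100000 miRNA reads and each male left out. Every oar-miR-376 entry is named, with the 3 miRNAs most like each, and the members and lists were chosen with earlier results of these data known. The chromosome 18 list and the homologues of predicted miRNAs are the study's. P-values measure the spread between males, with 1 library per male.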

Additional observations from a re-analysis of the deposited data

Results flagged for a closer look

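In underfed replicate 8, oar-miR-376a-5p (59.9 CPM, the next underfed male being at 26.8 CPM) and oar-miR-376b-3p (59.9 CPM, the next being at 8.31 CPM) lay far above the other underfed males by Dixon's criterion, which flags about 1 in 20 groups by chance. Each value was 3 of 50099 reads, with a 95% exact Clopper-Pearson interval of 12.3 to 175.0 CPM for counting error, and the remaining 3 members were at 0 in that library.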

How the results depend on the processing

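The count of DE members was 0 under every alternative run. This count says little where few miRNAs were DE at all. Over the fits without 1 male, between 0 and 21 of all 244 miRNAs were DE, with 0 without well-fed replicate 2 or 8. The count with an unadjusted p under 0.05 was 1, fell to 0 with joint normalization, and lay between 0 and 1 over the fits that each left out 1 male (0 without well-fed replicate 1, underfed replicate 5 or underfed replicate 6). FDR of oar-miR-376a-5p was between 0.0536 (voom) and 0.529 (joint normalization) over the settings that kept all males. The log2 fold change of oar-miR-376b-3p changed sign to 0.70 with joint normalization and 0.081 with a pseudocount of 5 CPM, and ran from -0.59 to 0.25 over the fits without 1 male. That of oar-miR-376c-3p was 0.51 and that of oar-miR-376e-3p 0.14 with joint normalization, and without 1 male oar-miR-376c-3p ran from -1.05 to 0.086. With joint normalization the median of all 244 miRNAs was 0.81. The ratio of oar-miR-376a-5p to oar-miR-376b-3p differed between diets by -1.33 with a pseudocount of 5 CPM (adjusted p = 0.0410, exact permutation test), and by -2.23 to -1.15 without 1 male. Relative to the chromosome 18 list, the difference of oar-miR-376b-3p was -0.43 in the 13 deeper libraries and -0.29 to 0.68 without 1 male, and that of oar-miR-376c-3p was 0.024 with a pseudocount of 5 CPM and -0.92 to 0.40 without 1 male. In the order of levels, the log2 ratio of oar-miR-376a-5p to oar-miR-376c-3p was -0.028 in the 13 deeper libraries. That of oar-miR-376c-3p to oar-miR-376b-3p was 1.12 with a pseudocount of 5 CPM and 1.90 in the 13 deeper libraries, and that of oar-miR-376e-3p to oar-miR-376d was 0.43 with a pseudocount of 5 CPM, each with adjusted p under 0.05. The causes were not tested. Over all miRNAs, 8 were DE in the reported fit, 36 without TMM, 60 with joint normalization, 26 with voom and 25 in the 13 deeper libraries.

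Replicate numbers are shared between diets, but the deviations of males with the same number had a mean correlation of 0.0472, over 0.1 in 3 of 8 pairs, and 2 of 8 well-fed males correlated best with their own number, so the numbers were not taken as pairs. With a replicate block in the fit, FDR of oar-miR-376a-5p was 0.144 with 1 unadjusted p under 0.05, 0 members were DE, and no other call on the members changed. Of all 244 miRNAs, 7 were DE in that fit and 27.0% had an unadjusted p under 0.05 (limma). Depth limits the 3 scarcest members most, with at most 6 reads of oar-miR-376b-3p or oar-miR-376d in any male.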
